A study of Auxenochlorella pyrenoidosa with 8 samples.

Results

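The 150 genes described here were the steadiest of the well-expressed genes of a green alga while its CO2 supply was cut. They were chosen from 10283 genes with a deposited level. Genes with a mean RPKM between 20 and 200 over the 8 libraries came to 3310, here called the window, and the 150 with the smallest standard deviation (SD) of log2(RPKM + 1) over those libraries were taken. RPKM divides the reads of a gene by its length and by the size of the library. The choice used the levels themselves, so the small spread of these genes over the 8 libraries is a description and not a finding.

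The alga was strain FACHB-9 of Auxenochlorella pyrenoidosa, named Chlorella pyrenoidosa in the study's title, a unicellular organism grown in light on 5% CO2 for 5 days and then bubbled with plain air. RNA was sequenced at 0 h, when cells still had 5% CO2, and after 1 h, 4 h and 24 h in air, with 2 libraries at each time that the submitters describe as independent biological experiments run in a single batch. Every group shares the strain and the 5-day culture. The groups include no culture that stayed on 5% CO2, so the loss of CO2 cannot be told apart from handling or a longer culture.

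When CO2 becomes scarce, green algae switch on a carbon-concentrating mechanism, in which transporters and carbonic anhydrases raise the supply of inorganic carbon to Rubisco. Measuring such a response by quantitative PCR needs reference genes, whose transcript level stays near constant and against which other transcripts are expressed. Actin, tubulin, elongation factor 1-alpha, ubiquitin and ribosomal protein genes are common choices in algae and plants. Gene numbers come without a name or product in the files, so none of these usual references could be found among the 10283 genes, and the steady genes are given by number, position and structure. No sequence of this strain was used here.

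Reads assigned to genes came to between 16706278 and 35463138 per library. Replicates did not always resemble each other most. Across 9326 genes, the library labelled 1 h number 2 had r = 0.992 with 24 h number 1 but 0.954 with its own replicate. Crosswise, 1 h number 1 had r = 0.980 with 24 h number 2 and 0.981 with 0 h number 2, which in turn had 0.968 with 0 h number 1. The 24 h pair had 0.934, while the 4 h pair had 0.993. The SD that chose the steady genes runs over all libraries and takes no account of time labels, but every mean and comparison at 1 h and 24 h given below rests on those labels.

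The levels of the 150 genes stayed within narrow limits. Their highest library stood at 1.09 to 1.30 times their lowest, with a median of 1.21, whereas the other 3160 genes of the window had a median of 1.85. The SD of log2(RPKM + 1) was between 0.0400 and 0.113 with a median of 0.0974, beside a median of 0.293 in the other window genes. As a coefficient of variation on the linear scale, the range was 2.85% to 8.44%. Together the 150 genes took 2.23% to 2.32% of the reads of a library.

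**Figure D1:**
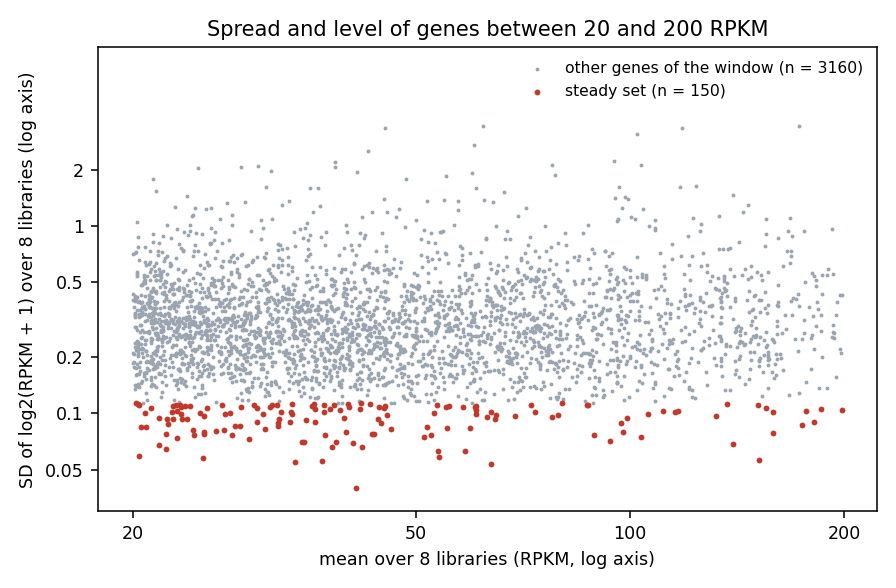
Mean level over 8 libraries (RPKM, log axis) against the SD of log2(RPKM + 1) over the same libraries (log axis) for the 3310 genes between 20 and 200 RPKM, 1 point per gene. The 150 steady genes lie at or below an SD of 0.113 and are found along the whole range of levels.

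The steadiest gene of all was g2321, with 8 coding exons and a coding length of 1416 bp on the plus strand of scaffold00251 (191683 to 194807). It stood at 43.0 and 39.5 RPKM in the 0 h pair, 41.5 and 42.7 in the 1 h pair, 41.1 and 41.1 in the 4 h pair, and 40.5 and 40.4 in the 24 h pair. Its highest and lowest values both came from 0 h, so the 0 h libraries enclosed all others. Its libraries held 2245 to 4548 reads of this gene, and over those 8 depths counting alone would give an SD of 0.0274, beside the 0.0400 measured.

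The next in order was g2435, with 3 coding exons and a coding length of 1104 bp on the minus strand of scaffold00269 (1056 to 2750). Its levels were 61.9 and 60.7 RPKM in the 0 h pair, 62.0 and 63.0 in the 1 h pair, 64.5 and 64.9 in the 4 h pair, and 64.1 and 68.6 in the 24 h pair. All later libraries lay above both 0 h libraries, so this small SD went with a drift over time, of at most 1.13-fold between any 2 libraries. g9830 (5 coding exons, minus strand of scaffold01246, 1614676 to 1617184) had 32.4 and 35.2 RPKM in the 0 h pair, 35.1 and 34.6 in the 1 h pair, 34.3 and 34.3 in the 4 h pair, and 33.2 and 31.6 in the 24 h pair. Its 0 h libraries again spanned most of the range, and only 24 h number 2 lay outside them.

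g6265 is a gene of 8 coding exons on the plus strand of scaffold00902 (238888 to 241902). It ran from 34.7 RPKM in 24 h number 2 to 39.0 RPKM in 0 h number 2, again with its other 0 h library near the low end at 35.3 RPKM. g7081, with 6 coding exons on the plus strand of scaffold01003 (562564 to 564468), was the most abundant of the 10 steadiest. It had 156 and 141 RPKM in the 0 h pair, 155 and 160 in the 1 h pair, 146 and 154 in the 4 h pair, and 152 and 152 in the 24 h pair. The remaining members of the first 10 were g387, g6575, g10184, g5415 and g3970, with SDs from 0.0575 to 0.0629. g10184 was the weakest of the 10, at 18.9 to 21.5 RPKM, and had 9 coding exons and 1298 reads in its lowest library.

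**Figure D2:**
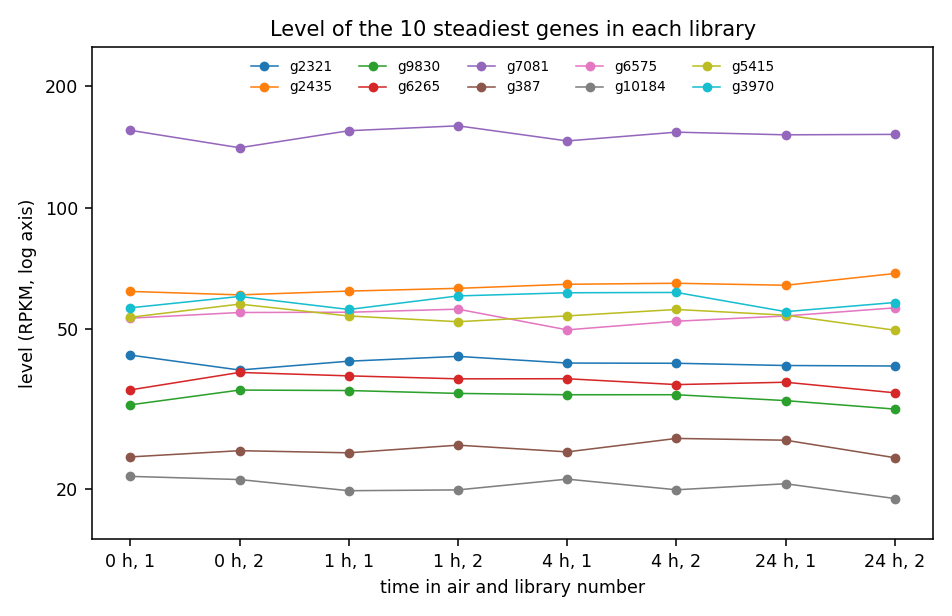
Level (RPKM, log axis) of the 10 genes with the smallest SD in each of the 8 libraries, named by hours in air and library number. Each coloured line joins the values of a gene; the lines run nearly level between 18.9 and 160 RPKM and no time point stands apart in all of them.

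The members with the highest means were g1570, g2741, g7684, g5937 and g3002, at 199, 185, 182, 177 and 175 RPKM. g1570 had 205 and 199 RPKM in the 0 h pair, 182 and 220 in the 1 h pair, 189 and 188 in the 4 h pair, and 218 and 187 in the 24 h pair. The 1 h and 24 h pairs of g1570 each differed by more than its 0 h and 4 h pairs did. In g5937 the 4 h libraries, at 176 and 197 RPKM, lay above the 0 h libraries, at 165 and 160 RPKM, and in g2741 they lay below, at 167 and 171 against 208 and 188 RPKM.

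At the lower end, g3289, g5387, g10184, g8733 and g4520 had means of 20.2, 20.3, 20.4, 20.4 and 20.5 RPKM, just above the lower limit of the window. The share of window genes that were members was 5.02% between 20 and 40 RPKM (80 of 1593 genes), 4.13% between 40 and 80 (44 of 1065), 3.55% between 80 and 120 (13 of 366) and 4.55% between 120 and 200 (13 of 286).

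At the limit of the rule, the last members were g6693, g3289 and g9431, each with an SD of 0.113, and the first genes left out were g4483, g4158 and g5072, with SDs of 0.113, 0.113 and 0.114. There was no gap between them. g9431 had 40.4 and 36.9 RPKM at 0 h and 45.6 and 42.7 RPKM at 4 h, a pair of groups that did not overlap, and g6693 had 69.6 and 82.2 RPKM at 0 h beside 79.7 and 87.1 RPKM at 4 h.

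Counting error was smaller than the measured spread in every member. A member had between 416 and 58479 reads in its median library, with a median of 1871 over members. From these reads, counting alone gives a median SD of 0.0313 on the log2 scale, and the measured SD was 1.30 to 15.4 times the counting value, with a median of 2.92. In the other window genes, with a median of 1979 reads and a median counting SD of 0.0321, the median ratio was 9.29. Reads from amplified libraries are not independent molecules, so the counting values cover counting error only.

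Replicates of the same time were close in the members. Within a time, the median SD between replicates was 0.0697, 0.0636, 0.0457 and 0.0772 for 0, 1, 4 and 24 h in turn (n = 2 libraries each), against 0.219, 0.185, 0.0802 and 0.234 in the other window genes. Over the 150 genes the SD of the 4 time means had a median of 0.0635 and the pooled replicate SD a median of 0.0861. Means of 2 libraries would have a median SD of 0.0609 from that replicate spread alone. The SD of the time means was above the gene's own value of this kind in 72 of 150 members, and in 2148 of 3160 other window genes. The rule kept both spreads small in the members, and replicates were taken by label. No absence of change over time is therefore read from these values. The highest mean fell at 0 h in 48 members, at 1 h in 29, at 4 h in 48 and at 24 h in 25.

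Among the other 3160 window genes the highest mean was at 0 h in 1449 (45.9%) and at 4 h in 877 (27.8%). Both 4 h libraries lay above both 0 h libraries in 37 members and below them in 35. Of the 9326 genes averaging 1 RPKM or more, 21% lay above in this way and 48.9% below. Since the rule used these values, nothing is read from the difference in these counts.

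No member was called changed at any time. The test was limma, a linear model with a spread shared across genes, on log2(RPKM + 1) of all 8 libraries, with calls at a Benjamini-Hochberg adjusted p under 0.05. At 4 h against 0 h, 0 of 150 members were called, where 12.1% of all 9326 genes were. The calls among all genes came to 0% at 1 h and 0% at 24 h against 0 h, 0.407% for 4 h against 1 h, 0.697% for 24 h against 4 h and 1.82% in the F test over the times, with 0 members among them in each case.

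At an unadjusted p under 0.05, limma gave 0 members in each of these tests. A count-based test, limma's voom on reads recovered from the RPKM, called 0 members as well and gave 0 before adjustment. After the libraries were rescaled by a trimmed mean of log ratios, 11 members at 4 h and 1 at 24 h had an unadjusted p under 0.05 in limma, and 7 and 1 in voom, while quantile normalization gave 2 at 4 h in limma. These counts follow from the choice. They do not show that the genes stayed constant, since the standard error of a member's log2 change had a median of 0.167, drawn towards that of other genes of like level. The fitted log2 changes of the members ran from -0.27 to 0.25 at 4 h, from -0.22 to 0.18 at 1 h and from -0.23 to 0.24 at 24 h.

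The same measure was then read in libraries that the choice had not used. When the rule was applied to the 4 libraries numbered 1 alone, the 150 genes chosen had a median SD of 0.0654 there and of 0.135 in the 4 libraries numbered 2, where the other window genes had 0.265. Chosen in the libraries numbered 2, the median SD was 0.0655 there and 0.158 in the libraries numbered 1, where the other window genes had 0.308. The held-out SD of the chosen genes was below the median of the others in 138 of 150 genes (92%) the first way and in 130 (86.7%) the second. Some libraries of the 2 numbers were closely alike. The 4 h pair had r = 0.993, and 1 h number 2 had 0.992 with 24 h number 1, while the 24 h pair had 0.934. How far this likeness lowered the held-out spread was not tested.

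The median SD of the chosen genes was in the held-out libraries 2.06 and 2.41 times that in the libraries that chose them. Their highest held-out library stood at a median of 1.24 and 1.29 times the lowest, beside 1.53 and 1.62 in the other window genes. Only 26 and 25 of the 150 genes were also among the 150 steadiest of the held-out libraries (17.3% and 16.7%), where 150 genes are 4.55% and 4.54% of the genes in those windows. No test was made of these shares, since genes are not replicates.

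**Figure D3:**
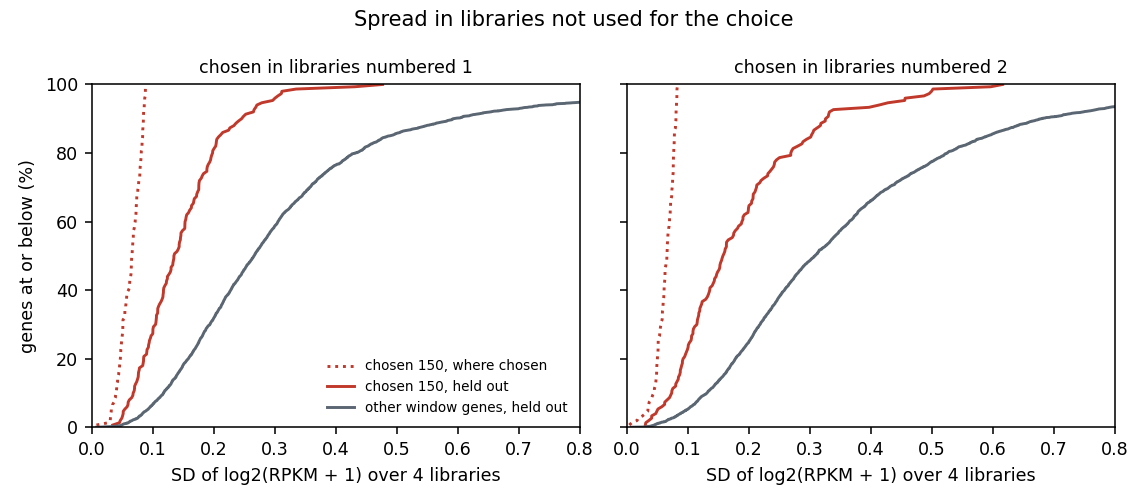
Percentage of genes at or below a given SD of log2(RPKM + 1) over 4 libraries, for 150 genes chosen in the libraries of 1 number (dotted, where chosen; solid red, in the other 4 libraries) and for the other window genes (grey). The held-out curves of the chosen genes lie between both, with medians of 0.135 and 0.158 beside 0.265 and 0.308; the axis ends at 0.8 and some of the other window genes lie beyond it.

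The steadiest single gene of 4 libraries was less steady in the other 4. g7190 was the steadiest gene of the libraries numbered 2, at 20.7, 20.8, 20.6 and 20.6 RPKM for 0, 1, 4 and 24 h (SD 0.0037). In the libraries numbered 1 it had 13.2, 19.6, 21.0 and 22.4 RPKM (SD 0.325), low at 0 h, and it is not a member. g5415, the steadiest of the libraries numbered 1 (53.4, 53.8, 53.8 and 54.1 RPKM, SD 0.0071), had 57.6, 52.1, 55.8 and 49.6 RPKM in the libraries numbered 2 (SD 0.0956) and holds rank 9 among the members. Both were picked out after their values had been seen.

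Each choice by 4 libraries shared 71 and 61 genes with the 150 members, and 24 members were chosen in both. The members were chosen on the same libraries, so much of this overlap was built in. The 10 steadiest of these 24 were g2321, g2435, g9830, g6265, g7081, g387, g6575, g3970, g9998 and g10291. g9998, with 6 coding exons on the plus strand of scaffold01279 (726588 to 728402), had 40.7 and 41.4 RPKM at 0 h and 41.4 and 41.2 at 4 h, with 36.8 RPKM in 24 h number 1 and 43.9 RPKM in 1 h number 2 as its extremes. g10291, with 8 coding exons on the minus strand of scaffold01345 (32057 to 35670), had its extremes in the 0 h pair, at 35.5 and 42.0 RPKM.

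Used as references, the members were averaged into an index, the mean log2 level of the 150 genes in a library, centred over the libraries. On the deposited RPKM the index was 0.0045 and 0.0049 in the 0 h pair, -0.0089 and 0.016 in the 1 h pair, -0.022 and 0.027 in the 4 h pair, and 0.0018 and -0.024 in the 24 h pair. It was highest in 4 h number 2 and lowest in 24 h number 2, with 4 h number 1 nearly as low, and the differences from 0 h were -0.0010, -0.0022 and -0.0157 at 1, 4 and 24 h. The mean of the other window genes differed from 0 h by -0.060, -0.116 and -0.0967 in turn.

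With the libraries rescaled by this index, limma called 204 genes that rose and 891 that fell at 4 h against 0 h. On the deposited RPKM the counts were 201 and 930, so 81.4% of the calls fell with the index and 82.2% without it. Since the members were picked for a flat RPKM, the index could move the RPKM scale only a little.

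Which genes counted as steady depended on the scale between libraries. From 0 h to 4 h, the median log2 change of the 9326 tested genes was -0.20 in RPKM, and -0.01 after library totals were scaled by a trimmed mean of log ratios. On that scale the members' index was -0.154 and -0.0749 in the 0 h pair, -0.0117 and -0.0061 in the 1 h pair, 0.0727 and 0.104 in the 4 h pair, and 0.0316 and 0.0377 in the 24 h pair. Both 0 h libraries were the lowest and both 4 h libraries the highest, and the 4 h mean stood 0.203 above the 0 h mean. The members were picked for a flat RPKM, so this offset follows largely from the library factors. Those factors divided the RPKM, and were 1.12 and 1.06 at 0 h and 0.935 and 0.946 at 4 h.

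Quantile normalization put the 4 h mean 0.132 above the 0 h mean and the median of ratios put it 0.234 above. These offsets also follow largely from the choice of genes flat in RPKM. The amount of RNA per cell was not measured, and each of these scales is relative to the other transcripts in the library. The trimmed-mean scale called 292 genes that rose and 431 that fell at 4 h (59.6% fell), and 0 of the 150 members.

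**Figure D4:**
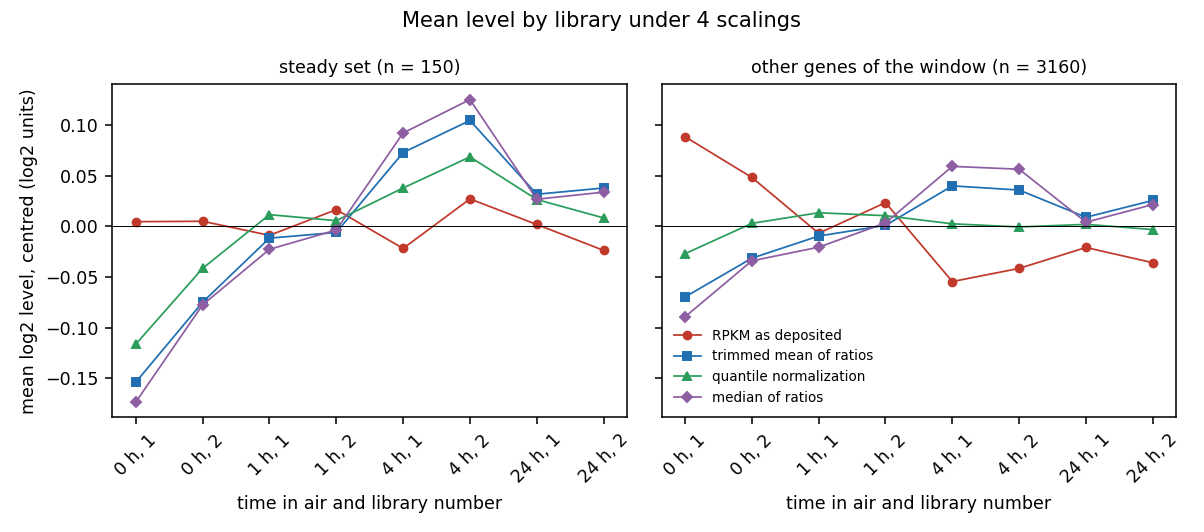
Mean log2 level per library, centred over the 8 libraries (log2 units), of the 150 steady genes (left) and the other 3160 window genes (right), under the deposited RPKM and 3 other scalings, each a coloured line. The steady genes run level on the RPKM scale, on which they were chosen. Their 4 h mean stands 0.203, 0.132 and 0.234 above their 0 h mean under the trimmed mean, quantile normalization and median of ratios.

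When the rule was applied on the trimmed-mean scale, 65 of the 150 genes were chosen again. The 150 genes chosen there were lower at 4 h than at 0 h in RPKM in 141 cases (94%), with a median log2 difference of -0.18. Of the 150 members, 73 (48.7%) were lower. This contrast was largely built in, since genes level on the trimmed-mean scale must fall in RPKM with the library factors. g7077, with 7 coding exons and 2 predicted transcripts on the plus strand of scaffold01003 (543734 to 546678), shows the turn. Its RPKM was 51.9 and 48.0 at 0 h and 40.8 and 41.9 at 4 h, with no overlap, and its trimmed-mean level was 46.4 and 45.4 at 0 h and 43.6 and 44.2 at 4 h. Its rank among the 3310 window genes was 121 on the first scale and 2 on the second.

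g2435 went the other way, from rank 2 to rank 236, with trimmed-mean levels of 55.3 and 57.4 at 0 h and 69.0 and 68.5 at 4 h. g2321 stood at rank 25, with 38.4 and 37.3 at 0 h and 44.0 and 43.4 at 4 h. Across the 3 other scalings, 57 members were chosen every time.

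A measure that needs no scale between libraries is the mean SD of the log2 ratios of a gene to every other gene of a set, known as the geNorm M value. Among the 150 members it ran from 0.0994 to 0.153 with a median of 0.130, and the lowest values belonged to g2321, g387, g9830, g6341 and g5415. Against all 3310 window genes the members had a median M of 0.364 and the window 0.449, and 102 of the 150 members were among the 150 genes with the lowest M. Of those 150 genes, 114 (76%) were lower at 4 h than at 0 h in RPKM, with a median log2 difference of -0.09, against 73 (48.7%) of the members. Of the members, 56 were chosen under all 3 other scalings and by M.

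Only 9 members were chosen again in every one of several settings, namely the 3 other scalings, M, each of the 8 leave-outs of a library, and each library number alone. They were g2321, g9830, g6265, g7081, g6575, g9998, g6909, g7354 and g9575, a list drawn after the values were seen. On the trimmed-mean scale, both 4 h libraries of each gene lay above both of its 0 h libraries. There g7081 had 139 and 133 at 0 h and 157 and 163 at 4 h. Being chosen again therefore did not mean a level course on every scale. g6909, with 8 coding exons on the minus strand of scaffold00992 (1189658 to 1193355), stood at 90.9 and 103 RPKM in the 0 h pair, 97.4 and 93.6 in the 1 h pair, 91.2 and 94.8 in the 4 h pair, and 87.8 and 91.6 in the 24 h pair. g7354, with 7 coding exons on the minus strand of scaffold01012 (342815 to 345648), ran from 45.9 to 54.4 RPKM.

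g9575, with 5 coding exons on the minus strand of scaffold01246 (292301 to 294094), ran from 96.9 RPKM in 0 h number 1 to 81.4 RPKM in 24 h number 2. Its 24 h libraries lay below both of its 0 h libraries. g6575, with 7 coding exons on the plus strand of scaffold00950 (1 to 3141), has no complete coding frame in the models and begins at the first base of its scaffold.

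The spread of an index of few or many genes was read in held-out libraries, first in RPKM. Chosen in the libraries numbered 1 and read in those numbered 2, the SD of the index was 0.0956 for 1 gene, 0.0639 for 3, 0.0472 for 5, 0.0415 for 10, 0.0502 for 50 and 0.0634 for 150. The mean of all 3298 genes of that window had 0.0466, so the index of 150 chosen genes had the larger SD there. The other way the values were 0.325, 0.0447, 0.106, 0.10, 0.0180 and 0.0357, beside 0.0486 for all 3307 window genes.

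On this scale the SD was below that of the whole window for the index of 10 genes the first way and for those of 3, 50 and 150 genes the second. On the trimmed-mean scale, with the same genes, the order changed. The first way the SDs for 1, 3, 5, 10, 50 and 150 genes were 0.0909, 0.111, 0.111, 0.0842, 0.0873 and 0.0817, all above the 0.0283 of the whole window. The second way they were 0.422, 0.0708, 0.0313, 0.0250, 0.101 and 0.0732, and those of 5 and 10 genes were below the 0.0585 of the whole window. Each of these SDs rests on 4 libraries, and no number of genes was below the whole window both ways on either scale.

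The structure of the members was set beside that of the other window genes. The RPKM used here refers to the whole gene span with introns. The median span was 2386 bp in the members, 2234 bp in the other window genes and 3045 bp in all genes. Medians in the members were 6 coding exons, 804 bp of coding sequence and 1051 bp of spliced length, beside 6, 783 bp and 1036 bp in the other window genes. The median intron length was 207 bp in members and 209 bp in the others.

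The members had a median of 7.05 introns per kb of coding length, against 6.43 in the other window genes and 6.54 in all genes, with quartiles of 4.85 to 8.76 and 4.31 to 8.42 in members and others. Those ranges overlap over most of their width. Genes of 6 to 10 coding exons made up 43.3% of the members (65 genes) and 35.9% of the others, and genes with over 10 made up 11.3% and 14.5%. A single coding exon was found in 4 members (2.67%) and in 2.41% of the others.

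Models without introns came to 3 of 150 members and 63 of 3160 others, and models with more than 1 transcript to 3 and 37. The coding frame was complete, from start to stop codon, in 119 members (79.3%), in 81.9% of the other window genes and in 86.6% of all genes. Of the members, 24 began at base 1 of their scaffold, a count not set beside that of other genes here. AUGUSTUS scores, which run from 0 to 1, had a median of 0.16 in members, 0.13 in the others and 0.11 in all genes. The gap to the upstream neighbour had a median of 466 bp in 122 members with such a neighbour and 595 bp in 2646 others, with quartiles of 225 to 1552 bp and 240 to 1862 bp.

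**Figure D5:**
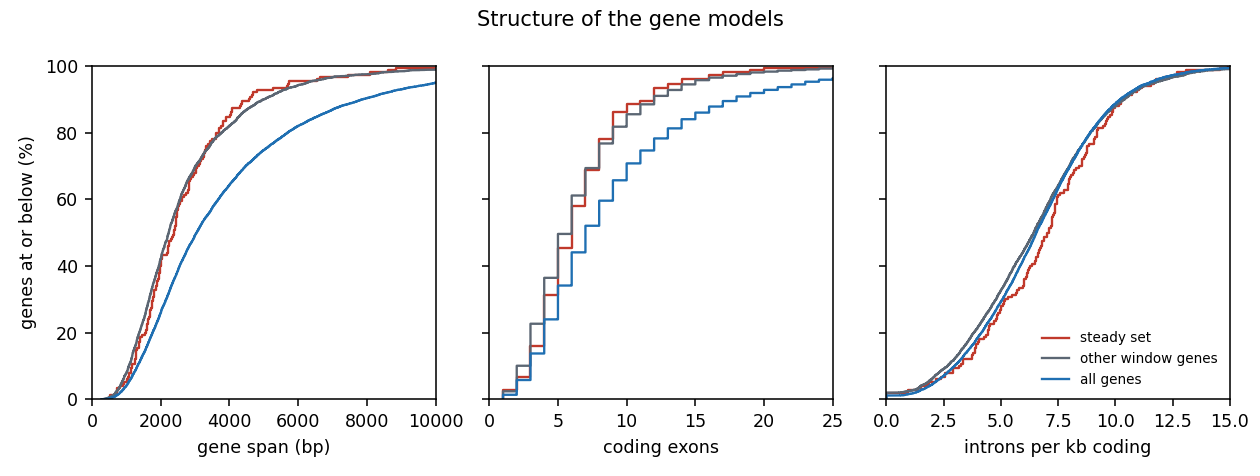
Percentage of genes at or below a given gene span (bp), number of coding exons and number of introns per kb of coding length, for the 150 steady genes, the other 3160 window genes and all 10283 genes; axes end at 10000 bp, 25 exons and 15 introns per kb. The curves of the steady genes and the other window genes run close together, with median spans of 2386 and 2234 bp, while all genes are longer at 3045 bp.

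Single members covered a wide range of forms. g2357, on the plus strand of scaffold00252 (114096 to 144620), had the longest span at 30525 bp, with 97 coding exons and a coding length of 13536 bp. Its levels were 92.1 and 101 RPKM in the 0 h pair, 106 and 97.6 in the 1 h pair, 90.0 and 90.0 in the 4 h pair, and 103 and 97.4 in the 24 h pair. With 46976 to 97453 reads in a library, counting alone gives an SD of 0.0058 over the 8 depths, beside the 0.0892 measured.

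The shortest member was g6217 on the plus strand of scaffold00900 (1 to 520), a fragment at the scaffold's start with 101 bp of coding sequence, at 96.8 to 113 RPKM. g7917, on the minus strand of scaffold01042 (296547 to 305170), had the largest intron share. Its spliced length was 13.6% of a span of 8624 bp. Its mean of 26.7 RPKM over the span corresponds to 197 on the same scale per kb of spliced length. Per kb of spliced length, the members ran from 22.7 to 531 with a median of 91.4, beside 91.9 in the other window genes.

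The intronless members g567 (scaffold00040, 1 to 530) and g7037 (scaffold01003, 358443 to 359179) had 36.9 to 45.2 and 48.9 to 61.1 RPKM. The model of g567 begins at base 1 of its scaffold, so any introns beyond that edge would be missed. g567 had 342 to 833 reads in a library, and over those 8 depths counting alone gives an SD of 0.0678, beside the 0.108 measured. g4157 (scaffold00542, 156838 to 159902), with 2 predicted transcripts, had 24.5 RPKM in 0 h number 1 and 19.1 to 22.4 RPKM in the other libraries.

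The members lay on 73 of the 1231 scaffolds with gene models, and window genes on 629. The scaffolds with most members were scaffold01012 with 11 members of 194 window genes and scaffold00366 with 10 of 197. Over all scaffolds, members were 150 of 3310 window genes, and no clustering is read from these counts. Only 1 pair of members were neighbours, g1569 and g1570 on scaffold00128 (1142333 to 1144502 and 1144661 to 1146357), whose models face each other across a gap of 158 bp. Their mean levels were 20.9 and 199 RPKM. No member overlapped a neighbouring model, and overlaps were rare among the other window genes (7 of 3160, 0.222%) and all genes (21 of 10283, 0.204%). The sources used here do not say whether reads were counted by strand.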

How the data were processed

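RNA was sequenced from 8 libraries, 2 at each of 0, 1, 4 and 24 h in air. The authors deposited RPKM values for 10283 genes, per the file headers. The submitters' processing notes name TopHat and HTSeq. Versions, settings and the assembly name are not given in these sources. The gene models are AUGUSTUS predictions for 10284 genes, deposited by the authors with start and end positions counted from 1 and a score for each prediction, per the file headers. Structure was taken from the first transcript of a gene.

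RPKM values multiplied by the gene's end minus start and by the library total gave whole reads for 100% of the values within 0.01 reads. The number of reads in the smallest library was 16706278, and a read in a span of 1 kb was worth 0.0282 to 0.0599 RPKM.

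The members and lists were chosen with earlier results of these data known. limma 3.58.1 in R 4.3.3 was fitted on log2(RPKM + 1) to 4 groups of 2, with trend and robust moderation, for genes averaging 1 RPKM or more. Fold changes on this scale understate the change of low genes. The fit was tested on simulated reads with the same spread between replicates at every time. Replicates here differed in spread between times, so that test does not vouch for the calls. Other steps used Python 3.11.15 and numpy 2.4.6. The trimmed mean dropped 30% of log ratios and 5% of mean levels at either end. Counting SDs were computed from the recovered reads.

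Genes were named by rule: the 10 smallest SDs, the 5 highest and 5 lowest means, the 5 lowest M values, the 3 genes on either side of the limit, extremes of structure, intronless, multi-transcript and neighbouring members, and up to 10 members chosen in each library number alone. Genes named outside the rule are marked as such. Alternatives changed the pseudocount, window, scaling, measure of spread, test, block and libraries. The settings with 0 h and 4 h libraries alone and with thinned reads, voom with trimmed-mean scaling, and the other scalings of the held-out spread, were chosen after seeing the data.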

Additional observations from a re-analysis of the deposited data

How the results depend on the processing

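The make-up of the steady set depended on the scaling, the measure of spread and the libraries. Of the 150 genes, 65 were chosen again under trimmed-mean scaling, 90 under quantile normalization, 58 under the median of ratios, 74 by the SD of the 4 time means, 71 and 61 in the libraries numbered 1 and 2 alone, 52 in the 0 h and 4 h libraries alone, and 0 without the RPKM window, when genes near 0 RPKM fill the list. Leaving out a library kept 87 to 130, with 87 without 0 h number 1 and 98 without 24 h number 2. The other pseudocounts, measures, windows, TPM and thinned reads kept 100 to 148. The median SD of the members was 0.0903 to 0.0977 in the leave-outs and 0.0988 to 0.129 under the other pseudocount and scalings, and the held-out median SDs were 0.138 to 0.143 and 0.154 to 0.162 under them. Of 32 named members, the SD moved by more than the member's replicate SD in 3 under the trimmed mean, 2 under quantile normalization and 7 under the median of ratios.

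Relative to 0 h, the index of the 150 genes stood at 0.105, 0.0874 and 0.112 at 1 h, at 0.203, 0.132 and 0.234 at 4 h, and at 0.149, 0.0962 and 0.156 at 24 h under the trimmed mean, quantile normalization and median of ratios in turn. These offsets follow largely from the choice of genes flat in RPKM. In the leave-outs the index at 4 h ran from -0.0266 to 0.0222 on the deposited RPKM, where the lone 4 h library decided the sign. It ran from -0.0137 to 0.0117 at 1 h and from -0.0285 to -0.0030 at 24 h.

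Members called were 0 in every comparison and setting that kept all libraries of the groups compared, a count that the choice of steady genes made likely in advance. For all genes, 4 h against 0 h gave 723 calls under the trimmed mean, 614 under quantile normalization, 695 in voom with trimmed-mean scaling (1127 in voom on the deposited totals) and 1883 with the 0 h and 4 h libraries alone. Leave-outs, in which the lone library left is assumed to vary like the others, gave 40 to 1531 calls, with 149 without 0 h number 1, 40 without 4 h number 1 and 47 without 4 h number 2. For 4 h against 1 h, calls were 79 with a pseudocount of 0.1, 19 with no filter, 61 with the steady genes as references and 23 in voom with trimmed-mean scaling, and 0 to 106 in leave-outs. For 24 h against 4 h they were 12 with no filter, 23 under quantile normalization, and 26 and 33 in voom without and with trimmed-mean scaling, and 0 to 41 in leave-outs. The F test gave 79 under quantile normalization, 107 in voom with trimmed-mean scaling and 0 to 286 in leave-outs. Leave-outs gave 0 to 1 call at 1 h and 0 to 14 at 24 h against 0 h. The cause was not tested.

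With the library number as a block (replicate block), all-gene calls were 830 at 4 h against 0 h, 0 for 4 h against 1 h, 0 for 24 h against 4 h and 33 in the F test. The deviations of same-numbered libraries from their time means correlated at -0.728 between 1 h and 24 h, an opposite deviation, and at 0.0135 to 0.350 in the other 5 pairs of times. The numbers were therefore not used as pairs. Groups of 2 libraries limit every value by time, and nothing here measures RNA per cell.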
